A study of Homo sapiens with 6 samples.

Results

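MALAT1, NEAT1, MEG3, H19, KCNQ1OT1, MIAT and NORAD are long noncoding RNAs (lncRNAs), and 69 of the 200023 poly(A) 3′-seq peaks in the deposited list belonged to them. A peak was given to a gene when its summit lay in the GENCODE gene body or in the 4000 bp past the 3′ end. The cells were IMR-32, an established human neuroblastoma line that carries amplified MYCN. The 6 libraries came as 2 from DMSO-treated control cells, 2 from cells after 2 h in 400 nM THZ531 and 2 from cells after 6 h at the same dose. This compound binds covalently to CDK12 and CDK13 and blocks them, a pair of kinases that phosphorylate the C-terminal domain of RNA polymerase II. Peaks were called once on merged reads. The methods do not list the samples that were merged, and these libraries are assumed, so each value is a pooled one over treated and control cells, with no replicate error, and the effect of THZ531 on these genes cannot be read from it.

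Of the markers of neuroblastoma and sympathetic neurons, MYCN among them, 11 of 11 had a peak at an annotated transcript end, with a median of 71 reads. Of the markers of other cell types 3 of 8 had one, with at most 15. The share of all genes with such a peak was not computed, so these counts have no baseline. At PHOX2A and TBX2 another gene also covers the summit, and the peak list has no strand.

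Most RNA polymerase II transcripts, coding or not, receive their poly(A) tail after cleavage downstream of a hexamer such as AATAAA, and the library kit used here starts each read at the junction of transcript and tail. MALAT1 and the long isoform of NEAT1 are exceptions: RNase P cuts their 3′ end in front of a tRNA-like small RNA, and a triple helix between U-rich motifs and an encoded A-rich tract protects the end in place of a tail. Because the kit primes with oligo(dT), a run of A encoded in the genome can also give a peak, so each peak was set beside its hexamers, the annotated transcript ends and the A content of the genome next to it.

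Each of the 7 genes had a peak with AATAAA or ATTAAA upstream and its 3′ edge, the edge nearest the 3′ end of the gene, at most 14 bp from an annotated transcript end. In MALAT1 this end lay well inside the gene. In the other 6 it was the end of the gene or, in NEAT1, of the short isoform, and the sequences around those edges are shown because they hold the end signal. Each runs 5′ to 3′ along the RNA in GRCh38, with 60 bases up to the edge and 40 past it, and capitals mark the AATAAA or ATTAAA nearest the edge.
NEAT1 (chr11:65426468-65426567, plus strand): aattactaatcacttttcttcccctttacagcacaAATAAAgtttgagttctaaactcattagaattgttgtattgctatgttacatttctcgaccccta
MEG3 (chr14:100860968-100861067, plus strand): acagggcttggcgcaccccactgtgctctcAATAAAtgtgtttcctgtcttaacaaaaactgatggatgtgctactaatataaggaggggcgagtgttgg
H19 (chr11:1995115-1995214, minus strand): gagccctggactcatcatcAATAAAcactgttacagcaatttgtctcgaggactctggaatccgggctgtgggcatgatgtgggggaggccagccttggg
KCNQ1OT1 (chr11:2597271-2597370, minus strand): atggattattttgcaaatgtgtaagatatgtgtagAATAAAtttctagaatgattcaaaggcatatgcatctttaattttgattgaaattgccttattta
MIAT (chr22:26676421-26676520, plus strand): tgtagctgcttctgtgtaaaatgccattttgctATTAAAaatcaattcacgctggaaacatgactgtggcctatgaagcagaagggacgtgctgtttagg
NORAD (chr20:36045564-36045663, minus strand): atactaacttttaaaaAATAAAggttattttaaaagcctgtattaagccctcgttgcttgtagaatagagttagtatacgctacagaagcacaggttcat

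MALAT1 and the long isoform of NEAT1 had no peak at their last annotated end. In MALAT1 that end lies past the processed end, and a peak had its edge 23 bases before the tRNA-like small RNA. The 71 reads of this peak were counted at its summit, chr11:65505738, and the height at its edge is not known from the list. In NEAT1 the nearest edge lay 4692 bases before the small RNA. The processed ends of both are shown to set the A-rich tracts side by side. In each line, the last 30 bases are the first of the tRNA-like small RNA and capitals mark the 25 bases with most A among the 60 before it (the later window where several tie).
MALAT1 (chr11:65506057-65506146, plus strand): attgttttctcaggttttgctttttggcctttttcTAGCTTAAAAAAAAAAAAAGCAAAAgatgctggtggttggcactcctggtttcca
NEAT1 (chr11:65445481-65445570, plus strand): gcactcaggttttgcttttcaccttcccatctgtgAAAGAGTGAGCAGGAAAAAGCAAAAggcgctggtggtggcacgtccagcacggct
The pair share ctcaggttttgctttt, a run of 16 bases that starts 52 bases before the small RNA in MALAT1 and 57 before it in NEAT1, and aaaaagcaaaag, a run of 12 that starts 11 bases before it in both. They differ in the A-rich tract, which has 18 A in 25 bases and a run of 13 in MALAT1, and 15 A in 25 and a longest run of 5 in NEAT1.

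The members differed widely in how many peaks they held and how tall these were. Height is given as reads at the summit, the pileup of distinct read starts extended to 100 bp, recovered from the deposited fold and −log10 p. In wide peaks the summit can lie far from the 3′ edge, so the height is not that at the edge. KCNQ1OT1 held 22 peaks, MEG3 17, MALAT1 9, NORAD 8, MIAT 7, and NEAT1 and H19 3 each. With a −log10 q of at least 5 MEG3 came first, with 15, and KCNQ1OT1 fell to 13. Per kilobase of gene the order was different: NORAD had 1.48 peaks and MALAT1 0.863, H19 had 0.320, MIAT 0.233, KCNQ1OT1 0.214, MEG3 0.208 and NEAT1 0.132. Peaks covered 29.2% of the length of NORAD and 26.4% of MALAT1, against 1.42% of NEAT1 and between 3.39% and 3.55% of the other 4 genes. Both measures depend on the annotated gene length, and so does the order below MALAT1. MEG3 is annotated with 81.622 kb, but only MEG3-226 reaches the gene start, and no other MEG3 transcript spans more than 34.929 kb. For comparison, 52.7% of 18859 other lncRNA genes held at least 1 peak, with a median of 2 peaks among those that did. They were counted by the rule used for the members, so peaks shared with an overlapping or following gene count too.

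By the tallest peak the order was MALAT1 with 99 reads, MEG3 with 67, NORAD with 64, H19 with 33, MIAT with 31, KCNQ1OT1 with 26 and NEAT1 with 19. With pooled reads these neighbours could not be set against a replicate spread. For the 9944 other lncRNA genes with a peak, peaks shared with other genes were again counted. Of these genes, 0.0905% had a peak as tall as that of MALAT1, 0.835% as that of MEG3 and 1.10% as that of NORAD. The shares were 12.9% for H19, 15.3% for MIAT, 22.5% for KCNQ1OT1 and 37.2% for NEAT1. Reads within the 10 kb around the summits gave a similar picture for the top of the order, with up to 2670 at MALAT1, 1062 at NORAD and 905 at MEG3, but put MIAT with 384 and KCNQ1OT1 with 367 above NEAT1 with 180 and H19 with 78. Since repeated reads with the same start count once, the height of a sharp site is bounded by the number of start positions and is not the level of an RNA.

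**Figure D1:**
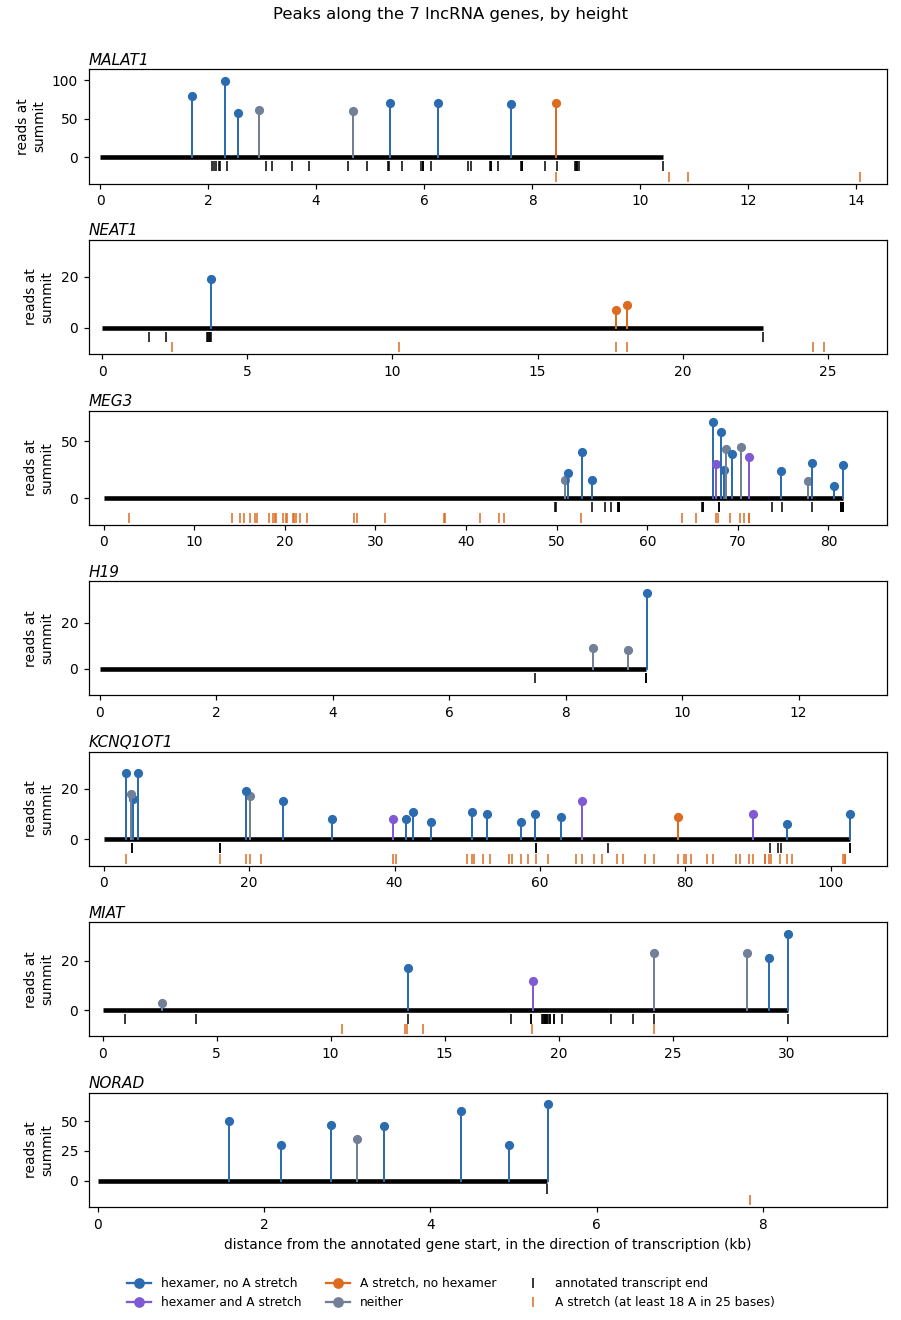
Each panel shows 1 gene from its annotated start, with distance in kb along transcription on the x axis and reads at the summit on the y axis for each peak, placed at its 3′ edge. Colours show whether a hexamer lay upstream and an A stretch (18 A or more in 25 bases) downstream, and ticks mark annotated transcript ends and genomic A stretches. Peaks reach 99 reads in MALAT1 and none lies at its last annotated end. NEAT1 has its tallest peak at 3.753 kb and none at the end of the 22.743 kb isoform. MEG3 has no peak in its first 50 kb, most of which only the transcript MEG3-226 spans.

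NEAT1, the scaffold of paraspeckles, was represented by 3 peaks (gene at chr11:65422774-65445540, plus strand). The short, polyadenylated isoform had the peak chr11:65426413-65426527 with 19 reads, whose edge lay 14 bp past the annotated end 65426513, where 2 transcripts of up to 3.544 kb stop. AATAAA started 25 bp before this edge, and no more than 7 of any 25 bases past it were A. The long isoform, NEAT1-202, had no peak at its end. The nearest edge lay 4692 bp upstream of it, and both peaks in the part that the long isoform does not share with the short one are in its single exon, at 17.704 and 18.074 kb from the gene start. Neither had any of the 12 hexamers in the 100 bp before the edge, and both faced 21 A in 25 bases. They had 7 and 9 reads on the floor of the background in this list, which 22.2% of all peaks share and which is at most 34 reads in 10 kb. At that background 3 reads at a summit would have reached the lowest −log10 p of the list, and at the short isoform's peak 7. The background at the end of the long isoform is not known from the list.

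MALAT1, an abundant RNA of nuclear speckles, had its 9 peaks spread over 6.755 kb of its 10.434 kb (gene at chr11:65497640-65508073, plus strand). Their heights ran from 58 to 99 reads with a median of 70, on 1858 to 2670 reads in 10 kb, so a peak needed 34 to 44 reads to be listed there, more than the tallest peak of NEAT1, H19, MIAT or KCNQ1OT1. The tallest peak, chr11:65499497-65499948, was 452 bp wide, with its 99 reads counted at the summit, 65499697. Its edge, and not its summit, lay 34 bp before the end of MALAT1-232, with AATGAA 47 bp before that edge. A hexamer and an annotated end met at chr11:65502864-65503001, with 70 reads, AATAAA 20 bp before the edge, and an annotated end 6 bp before it. The last peak, chr11:65505672-65506093, was 422 bp wide, with 71 reads at its summit, 65505738, and none of the 12 hexamers. Its edge lay 23 bases before the tRNA-like small RNA (chr11:65506117-65506173, 57 bases), at the start of the A-rich tract printed above with its run of 13 A.

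No peak of MALAT1 lay past that small RNA. There the annotation has 6 distinct ends of 18 transcripts, and the nearest edge was 338 to 1980 bp upstream of them. The gene's ends are dense: 39 distinct ends mark 66 transcripts, and 22.6% of its bases lie within 50 bp of one, beside which the 3 of 9 MALAT1 edges that did so are to be read. In NEAT1 this share of bases was 2.12%, in MEG3 1.79%, in H19 1.73%, in NORAD 0.944% and in KCNQ1OT1 0.757%, and in MIAT it was 5.16%.

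MEG3, a maternally expressed lncRNA of the imprinted DLK1-MEG3 region, had 17 peaks (gene at chr14:100779410-100861031, plus strand), all of them between 50.893 and 81.617 kb from the gene start. Its end peak, chr14:100860907-100861027, had 29 reads and a fold of 12.3 over the local background. The edge lay 1 bp past 100861026, the end of 8 transcripts, with AATAAA 30 bp before it. The peak chr14:100857410-100857621 stopped 3 bp before the end of MEG3-220, the longest MEG3 transcript once spliced, and had AGTAAA 21 bp before its edge. This peak was 212 bp wide, and its 31 reads were counted at the summit, 100857495. Peaks of 16 and 24 reads lay 40 and 42 bp before the ends of MEG3-210 and MEG3-245. The canonical transcript MEG3-226 had no peak at its end, with the nearest edge 1118 bp away. It spans 49.776 kb from the gene start and is 0.632 kb once spliced. No other MEG3 transcript spans more than 34.929 kb, and MEG3-226 alone covers most of the stretch before the first peak.

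The tallest peak of MEG3 was at no annotated end. It had 67 reads at chr14:100846455-100846669, and its edge lay 616 bp before the end of MEG3-207, with the AATAAA in capitals 27 bp before the edge.
MEG3 tallest peak (chr14:100846610-100846709, plus strand): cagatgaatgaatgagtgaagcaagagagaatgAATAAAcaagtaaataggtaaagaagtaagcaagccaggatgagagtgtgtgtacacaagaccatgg
This peak opened a run of 8 peaks over 4.234 kb, with 25 to 67 reads and a median of 41, while the other 9 peaks of the gene had 11 to 41 reads and a median of 22. Of the 8, 3 had AATAAA or ATTAAA upstream of the edge and 2 faced at least 18 A in 25 bases, against 5 and 0 of the other 9. The run lay within MIR493HG on the same strand and a gene without a symbol, ENSG00000258663, on the opposite strand, as did 13 of the 17 peaks, those at the ends of MEG3-220 and of the gene included. As the list has no strand, the share of these genes in the reads cannot be told apart from that of MEG3.

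H19, the maternally expressed lncRNA next to IGF2, gave the sharpest signal over its background (gene at chr11:1995166-2004552, minus strand). The end peak, chr11:1995155-1995286, had 33 reads and a fold of 19.1, the highest among the 69. Its edge lay 11 bp past the last annotated end and 21 bp past 1995176, where 28 of the 31 transcripts stop, with AATAAA 41 bp before the edge. The other H19 peaks had 8 and 9 reads, no hexamer and at most 6 A in any 25 bases past the edge. H19 was the only member with no A stretch of this kind (18 A or more in 25 bases) in the gene or the 4000 bp past it.

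KCNQ1OT1, a paternally expressed RNA known as mostly unspliced that runs antisense through KCNQ1, had many small peaks over 102.696 kb (gene at chr11:2597308-2700003, minus strand). At the far end, chr11:2597311-2597416 had 10 reads, 3 bp before the end of KCNQ1OT1-202, with AATAAA 25 bp before its edge. This transcript spans 102.696 kb and is annotated as spliced to 0.679 kb. The unspliced isoform KCNQ1OT1-201 of 91.667 kb had its nearest edge 2299 bp from its end. Near the start, within 5 kb, were 4 peaks of 16 to 26 reads with a median of 22, in an area of 352 to 367 reads per 10 kb. The 17 peaks in between had 6 to 19 reads with a median of 10. AATAAA or ATTAAA stood upstream of 13 of the 22 edges, against 3 of 22 on the opposite strand, searched from the other edge.

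All 22 of these peaks lie inside KCNQ1 as well, which is transcribed from the other strand. KCNQ1, a potassium channel gene of 404.452 kb, had 0 peaks in the 297.756 kb that KCNQ1OT1 and the 4000 bp past it do not cover, and 0 of the 22 edges lay within 50 bp of one of its own ends.

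MIAT, a nuclear lncRNA found in neurons, had 7 peaks (gene at chr22:26646411-26676475, plus strand). The end peak, chr22:26676271-26676480, had 31 reads, 5 bp past the end of 4 transcripts, with ATTAAA 27 bp before the edge. A short isoform end also lay beside a peak: chr22:26659599-26659783, with 17 reads and AATAAA 37 bp before its edge, stopped 12 bp before the end of MIAT-230, 13.372 kb into the gene, and 9 of the first 10 genomic bases past the edge were A. At chr22:26670505-26670610, with 23 reads and no hexamer, the edge lay 11 bp past the end of MIAT-226, and all 10 of the first 10 genomic bases past it were A. The canonical MIAT-223 had its nearest edge 955 bp away, and the peak with fewest reads of all 69, with 3, lay in a MIAT intron. The last 3 peaks, the end peak among them, also lie in MIATNB on the same strand, whose share of the reads cannot be told apart. MIATNB has 2 peak edges within 50 bp of its own ends, and 0 of these are among the MIAT peaks.

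NORAD, a lncRNA that binds Pumilio proteins and is known as mostly cytoplasmic and not imprinted, is annotated as a single unspliced transcript of 5.401 kb (gene at chr20:36045618-36051018, minus strand). Its end peak, chr20:36045604-36045827, was its tallest, with 64 reads, 14 bp past the annotated end, and AATAAA stood 44 bp before the edge. The other 7 peaks lay inside the transcript, at 1.579 to 4.944 kb from its start, with 30 to 58 reads. None of the 8 faced 18 A in 25 bases, the highest being 13. NORAD is built from repeated units, and the bases around several inner edges resembled each other. Those of peaks 4, 6, 7 and 8 are shown for that reason. The layout is as for the gene ends, and capitals mark the hexamer of the list nearest the edge within the 60 bases before it. Peak 6 also has ATTAAA 43 bp before its edge, not in capitals.
NORAD peak 4 (chr20:36047536-36047635, minus strand): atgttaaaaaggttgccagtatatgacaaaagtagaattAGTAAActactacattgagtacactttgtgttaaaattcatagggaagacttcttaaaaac
NORAD peak 6 (chr20:36048178-36048277, minus strand): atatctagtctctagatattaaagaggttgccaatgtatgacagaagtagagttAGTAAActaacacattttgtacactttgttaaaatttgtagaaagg
NORAD peak 7 (chr20:36048772-36048871, minus strand): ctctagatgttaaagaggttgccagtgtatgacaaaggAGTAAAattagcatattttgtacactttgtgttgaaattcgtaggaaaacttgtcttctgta
NORAD peak 8 (chr20:36049399-36049498, minus strand): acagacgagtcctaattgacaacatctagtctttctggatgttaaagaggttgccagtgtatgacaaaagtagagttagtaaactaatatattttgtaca
The surroundings of each pair of peaks were compared without gaps and shifted against each other. Between peaks 4 and 8, 80 of 100 bases matched, at a shift of -38 bases. Between 6 and 8 it was 75 at -23, and between 4 and 6 it was 71 at -15. These were the highest 3 of the 28 pairs of NORAD peaks, and the edges of peaks 4, 6 and 8 stood at different places in the similar sequence. Peak 7 matched these at 52 to 61 of 100, and the end peak matched any other at 45 or fewer. AGTAAA started 6 to 44 bp before the edge of peaks 3, 4, 6 and 7, and the same letters stood 6 and 17 bases past the edge of peaks 5 and 8. TGTANATA, the Pumilio recognition motif on the RNA strand, occurred 15 times in NORAD, or 2.78 per kb, against 0.177 per kb over the other lncRNA genes with a peak, of which 0.171% had as many per kb. The gene held 1 AATAAA in all, the one at its end.

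Over the 69 peaks, 24 (34.8%, 95% Wilson interval 24.6 to 46.6) had the summit in a transcript-end window, which spans the 200 bp before and the 600 bp after an annotated end. Such windows cover 58.3% of the MALAT1 region and 25.2% of the MIAT region, and from 5.66% to 12.04% of the others, and their number depends on the GENCODE release. A summit lay in one for 18.9% of 12418 peaks of other lncRNA genes and 17.4% of all 161108 other peaks in genes of 1 strand. Another 43 were in exons, 2 in introns and 0 past a gene end, where a count of 0 allows up to 5.27%. Counted by gene and not by peak, 23.6% of 2540 other lncRNA genes with a peak in the gene had a summit there. These genes have no other gene in the 4000 bp past their end, while KCNQ1OT1, MEG3 and MIAT do. None of the members had one, and they are too few to be set against that share. The tighter measure, an edge within 50 bp of an annotated end, held for 14 of 69 (20.3%, interval 12.5 to 31.2), against 11.8% of the other lncRNA peaks. The 14 had a median of 30 reads and the other 55 a median of 19. The intervals cover counting error only, and peaks of the same gene share transcripts and are not independent.

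Any of the 12 hexamers stood in the 100 bp before 51 of the 69 edges (73.9%, interval 62.5 to 82.8), against 23 (33.3%) when the opposite strand was searched from the other edge. Other lncRNA peaks had one at 57.4%, and 39.4% on the opposite strand, and all other peaks at 59.5%. These other peaks all lie in genes of a single strand, as do 25 of the 69, of which 17 (68%) had a hexamer, 7 (28%) a summit in a transcript-end window and 6 (24%) an edge within 50 bp of an annotated end. Without MALAT1, whose annotated ends are the densest, 16 of 60 (26.7%) had a summit in a transcript-end window. For AATAAA or ATTAAA alone the member counts were 31 (44.9%) and 9 (13.0%), and the other lncRNA shares 35.4% and 16.5%. KCNQ1OT1 had a hexamer at 19 of 22 edges, MEG3 at 13 of 17, NORAD at 7 of 8, MALAT1 at 6 of 9, MIAT at 4 of 7, and NEAT1 and H19 at 1 of 3 each. In a window from 10 to 50 bp before the edge, chosen after the values were seen, AATAAA or ATTAAA started at 8 of the 14 edges near an annotated end and at 14 of the 55 elsewhere.

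**Figure D2:**
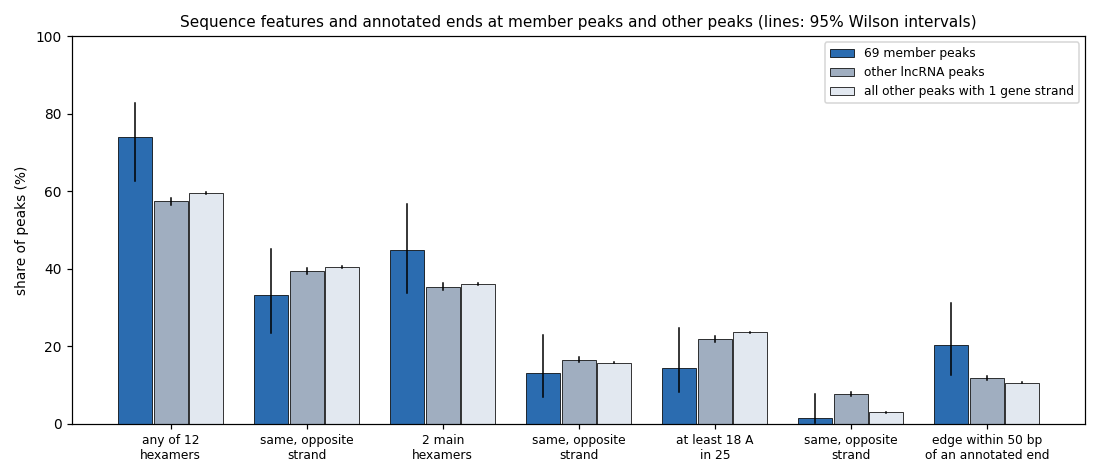
Bars give the share of peaks in percent with each feature for the 69 member peaks, the other lncRNA peaks and all other peaks with 1 gene strand, and lines are 95% Wilson intervals. Member peaks stand at 73.9% for the 12 hexamers and 14.5% for at least 18 A in 25 bases, beside 57.4% and 21.9% in other lncRNA genes.

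How many member peaks stood next to encoded A depended on the limit. At the study's own limit, at least 22 A in 25 bases within 50 bp past the edge, 1 of 69 qualified (1.45%, interval 0.256 to 7.76), against 5.19% of other lncRNA peaks and 5.09% of all other peaks. At a looser limit of 18 A there were 10 (14.5%, interval 8.07 to 24.7), against 21.9% of other lncRNA peaks. The opposite strand gave 1 of 69, against 7.59%. At the loosest, 12 A in 20 bases or 6 A in a row, 33 of 69 peaks qualified (47.8%), among them 5 of 9 in MALAT1, against 46.8% of other lncRNA peaks, and the opposite strand gave 4. The 10 with 18 A or more were 4 in KCNQ1OT1, 2 each in NEAT1 and MEG3, and 1 each in MALAT1 and MIAT. Their median height was 11 reads, with a range of 7 to 71, against 24 for the other 59 peaks. The genes differ in height, so this contrast cannot be told apart from one between genes. In KCNQ1OT1 the 4 had 8 to 15 reads beside a gene median of 10. The values were 30 and 36 beside 30 in MEG3, and 71 beside 70 in MALAT1. They were 12 beside 21 in MIAT, and 7 and 9 beside 9 in NEAT1. Just inside the looser limit were 2 peaks with 18 A, in MALAT1 and MEG3, and just outside were 2 with 17 A, in MEG3 and MIAT. The lines show the richest of these outside MALAT1 and MEG3, together with the MIAT peak just outside, with 30 bases up to the edge and 50 past it, and capitals mark the 25 bases counted.
NEAT1 first (chr11:65440449-65440528, plus strand): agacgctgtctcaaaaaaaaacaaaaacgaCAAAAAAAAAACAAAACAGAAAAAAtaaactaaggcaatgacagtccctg
NEAT1 second (chr11:65440819-65440898, plus strand): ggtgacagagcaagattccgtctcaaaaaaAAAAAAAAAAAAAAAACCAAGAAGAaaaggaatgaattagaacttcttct
KCNQ1OT1 with 22 A (chr11:2610689-2610768, minus strand): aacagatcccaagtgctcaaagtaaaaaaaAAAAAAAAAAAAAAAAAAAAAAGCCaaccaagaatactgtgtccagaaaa
KCNQ1OT1 with 21 A (chr11:2620909-2620988, minus strand): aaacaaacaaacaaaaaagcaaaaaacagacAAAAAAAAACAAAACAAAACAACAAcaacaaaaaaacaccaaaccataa
MIAT with 20 A (chr22:26665238-26665317, plus strand): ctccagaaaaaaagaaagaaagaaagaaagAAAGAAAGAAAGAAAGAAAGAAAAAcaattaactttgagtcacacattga
MIAT with 17 A (chr22:26670581-26670660, plus strand): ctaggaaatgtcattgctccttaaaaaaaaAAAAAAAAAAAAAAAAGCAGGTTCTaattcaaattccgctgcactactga
Both NEAT1 lines, the KCNQ1OT1 line with 21 A and the MALAT1 tract were the 4 with an A stretch and no hexamer. The KCNQ1OT1 peak with 22 A had 10 reads and AGTAAA 10 bp before its edge, so 0 of the 69 peaks passed the study's A limit without a hexamer. The methods remove such peaks, but the deposited list still held them: 520 of the 645 other lncRNA peaks past that limit had no hexamer. In the MIAT peak with 17 A, 16 A in a row follow the edge and the next bases bring the count down.

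Most such stretches had no peak. The 7 genes and the 4000 bp past them hold 100 stretches with 18 or more A in 25 bases, of which 10 had a peak edge in the 50 bp before them. In the bodies of other lncRNA genes with a peak the share was 3.68% of 120520 stretches. KCNQ1OT1 held 46 of the stretches and MEG3 37, NEAT1 and MIAT 6 each, MALAT1 4 and NORAD 1. AATAAA was similar: KCNQ1OT1 holds 197 and MEG3 78, and 6 in each gene had an edge 10 to 50 bp downstream.

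**Figure D3:**
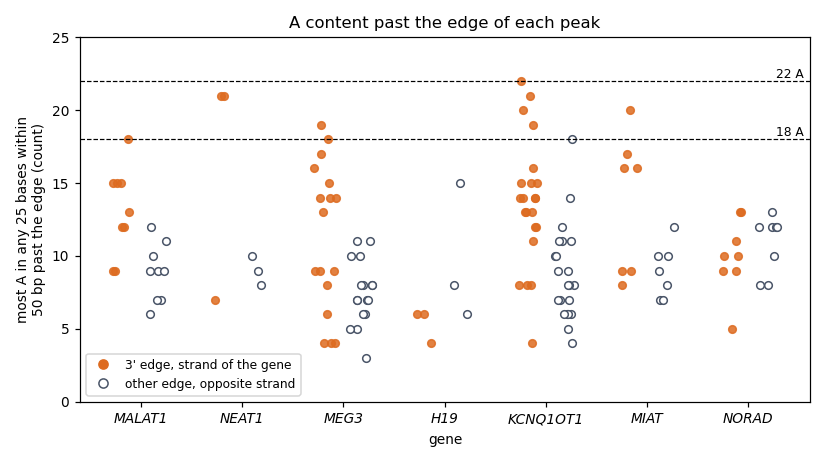
For each peak the y axis gives the most A in any 25 bases within 50 bp past the edge, by gene, with filled points for the 3′ edge on the gene's strand and open points for the other edge on the opposite strand. Dashed lines mark 18 and 22 A: 10 filled points reach 18, 1 of them 22, and 1 open point reaches 18.

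A −log10 q of at least 5 was met by 54 of the 69 peaks, which is 78.3%, against 63.3% of other lncRNA peaks, and one of at least 20 by 10, or 14.5%, against 5.26%. Of those 10 peaks, 5 were in MEG3, 2 each in MALAT1 and NORAD and 1 in H19, and all 10 had a hexamer upstream and 5 an edge within 50 bp of an annotated end. NEAT1, KCNQ1OT1 and MIAT had none. The hexamer and end shares of other peaks with a −log10 q of at least 20 were not computed. A gene of the opposite strand covered the summit of 44 peaks: 22 in KCNQ1OT1, 13 in MEG3, 8 in MALAT1 and 1 in MIAT. The 8 in MALAT1 lie in TALAM1, its antisense RNA, all of which is inside MALAT1.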

How the data were processed

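IMR-32 cells were profiled by poly(A) 3′-seq, and per the study's methods the authors mapped reads to GRCh38 with STAR 2.5.1b, merged all samples (not listed, taken here to be the 6 libraries) and called peaks with MACS2 2.1.1 without a control, extending reads to 100 bp. Reads with several placements were kept, and whether any fell in repeats such as those of NORAD was not tested. The deposited list gives for each peak a fold enrichment (a ratio), −log10 p and −log10 q of the summit, a summit offset (another deposited column, in bp) and a score, which was not used. It has no strand and no value or depth per library.

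Reads at the summit and the background were solved from the deposited fold and −log10 p. The largest misfit of −log10 p was 0.000172, and the solution was tested on simulated data. Transcripts came from GENCODE 44, a later release than the study's, and sequences from the matching GRCh38 genome. The 3′ edge of a peak was taken by the strand of its gene. The 12 hexamers were searched in the 100 bp before the edge, A stretches in the 50 bp past it. All 7 genes were described, by tallest peaks, annotated ends and A stretches. Members, lists and windows were chosen with earlier results of these data known. No test was possible, since peaks were called on pooled reads. Python 3.11.15, pandas 2.3.3, scipy 1.17.1 and pysam 0.24.0 were used. A few genes of the lists are not reported here by name. Alternatives are given with the dependence on processing.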

Additional observations from a re-analysis of the deposited data

How the results depend on the processing

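No paired analysis was possible because peaks were called on merged reads and carry no replicate number. With −log10 q of at least 20 the 69 peaks fell to 10, with 60% at a transcript end, 40% in exons, 0% in introns, 100% with a hexamer, 0% with an A stretch of 22 and 50% with an edge near an annotated end. The last share was added after seeing the data, as was leaving out MALAT1, which moved none of the shares of classes or of edges beyond their intervals. Without peaks in a gene of the opposite strand, 25 peaks were left, 0% with an A stretch. Intron peaks came to 0% at −log10 q of at least 5. A window of 100 bp either side of transcript ends gave 18.8% at an end and 78.3% in exons, and canonical transcripts alone gave 4.35%, with 30.4% in exons and 65.2% in introns. The hexamer share was 44.9% for AATAAA and ATTAAA, 37.7% for a window ending at the summit and 33.3% on the opposite strand. The A stretch share was 14.5% for 18 A, 47.8% for 12 A in 20 or 6 in a row, and 0% on the opposite strand. Of the other values of this kind, 45 stayed within their spread. Sites with few reads, as in NEAT1, rest on 7 to 19 reads, and a peak in MALAT1 needed at least 34, so smaller sites there were not detectable at this depth.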

Other observations

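The proteins and neighbours that belong to the biology of these RNAs were described by the tallest peak at one of their annotated transcript ends, from lists chosen with earlier results of these data known. The share of all genes with such a peak was not computed. The counts below therefore have no baseline and say nothing particular about the lists. All 8 paraspeckle partners of NEAT1 had such a peak, with a median of 31.5 reads. HNRNPK had the tallest, with 64 reads, and SFPQ had 34, NONO 30 and DAZAP1 12, beside 19 for the short isoform of NEAT1. All 4 NORAD binding proteins had one as well, with 63 reads at PUM2 and 55 at RBMX, beside 64 at the end of NORAD. Of 7 factors that bind or process the 3′ ends of MALAT1 and NEAT1, 6 had one, among them METTL16, the methyltransferase that binds the MALAT1 triple helix, with 30 reads, and ELAC2, which cuts tRNA 3′ trailers, with 21. Of the RNase P subunits in the list, RPP30 had the tallest peak of these factors, with 45 reads, and RPP38 had none.

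At the imprinted regions, 8 of 11 neighbours had a transcript-end peak. CDKN1C, the growth inhibitor next to KCNQ1OT1, had 60 reads, DLK1 next to MEG3 had 47 and IGF2 next to H19 had 26, beside 10 at the end of KCNQ1OT1, 29 at that of MEG3 and 33 at that of H19. INS, KCNQ1 and RTL1 had none. The other neighbours with one were between 11 reads, at SLC22A18 and DIO3, and 25, at MEG8. Among 15 other nuclear or imprinted lncRNAs, 12 had one, led by OIP5-AS1 with 66 reads and SNHG14 with 53, and TUG1 had 28. At ELAC2, IGF2, MEG8, DIO3 and OIP5-AS1, and at others counted here such as TARDBP and RBM14, another gene also covers the summit. As the peak list has no strand, the reads cannot be told apart. Heights of different genes were read side by side only, since repeated read starts count once and peak height is not a level.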
